A study of Mus musculus with 24 samples.

Results

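Arid5b and Slc25a30 are 2 of 18193 genes measured on liver arrays of mice fed quercetin, and they were selected on their own array values, because in these data their group means were highest at the middle dose, 0.5% quercetin. Each gene has 5 probe sets, the brightest of which stands for it, so the levels below describe that choice and carry no test for any comparison with the 0.5% group. Liver RNA of 24 BALB/c males, obtained when 6 weeks old, was put on 1 Affymetrix array per mouse. All animals spent a week on a nonpurified diet, with the dark phase by day, and then 14 days on the purified diet AIN93G alone (control) or with 0.1%, 0.5% or 1.0% quercetin, a plant flavonol, with 6 mice per group. Cages held 3 mice and are not linked to samples in the sources used here, so cage and diet cannot be told apart. Values are quantile-normalized log2(intensity + 1), a scale that understates folds of dim probe sets, and the number of arrays limits their precision.

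ARID5B is a DNA-binding protein with an AT-rich interaction domain. It works with PHF2, a demethylase that takes repressive methyl marks off histone H3, and mice without Arid5b are lean with little fat tissue. SLC25A30, also called kidney mitochondrial carrier protein, sits in the inner mitochondrial membrane and belongs to the branch of the SLC25 family that holds the uncoupling proteins. The human SLC25A30 protein has been shown to carry sulfur oxyanions and phosphate across membranes. One protein thus acts in the nucleus and the other in the mitochondrion.

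The promoter windows of both genes are printed because the genes share a dose pattern and a reader may want to compare the DNA at the start sites used. Each runs 5′ to 3′ from 250 bases before to 50 bases after a RefSeq start site in build GRCm38.p6, and capitals mark matches to the 10 motifs searched on both strands. The Arid5b window lies at chr10:68278677-68278976 on the minus strand and the Slc25a30 window at chr14:75786988-75787287, also on the minus strand.
Arid5b: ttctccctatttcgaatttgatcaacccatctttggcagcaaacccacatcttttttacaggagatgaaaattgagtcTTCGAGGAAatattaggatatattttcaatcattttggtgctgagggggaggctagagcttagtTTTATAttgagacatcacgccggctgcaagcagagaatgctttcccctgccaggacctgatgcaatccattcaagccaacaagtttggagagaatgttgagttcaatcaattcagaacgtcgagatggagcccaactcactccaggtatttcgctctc
Slc25a30: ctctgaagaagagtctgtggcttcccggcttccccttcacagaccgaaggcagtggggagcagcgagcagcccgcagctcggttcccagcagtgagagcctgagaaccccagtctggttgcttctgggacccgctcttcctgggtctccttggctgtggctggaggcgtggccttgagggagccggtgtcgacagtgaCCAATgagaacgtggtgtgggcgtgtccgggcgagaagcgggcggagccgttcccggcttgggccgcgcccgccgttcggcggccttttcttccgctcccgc
The search covered the E-box CACGTG, the basic leucine zipper sites TTATGTAA and TTACGTAA, the cyclic AMP response element TGACGTCA, the forkhead site TGTTTAC, the STAT site TTCNNNGAA, the palindromic glucocorticoid response element, the heat shock pair GAANNTTC, the TATA box core TATAAA and the CCAAT box. In the Arid5b window TTCNNNGAA began at position -172 from the start site, and TATAAA stood on the opposite strand at position -108. Among 32851 promoter windows of the same length, 8.3% held the first of these motifs and 13.6% the second. The Slc25a30 window held 1 match, CCAAT at position -52, a motif present in 37.4% of windows. No motif was found in both windows, and the other 7 were in neither. Their base makeup differed too, with 43.3% G or C and 7 CG pairs for Arid5b, 66.7% and 25 for Slc25a30, and medians of 52.7% and 7 over all windows.

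Before the levels are read, 4 arrays are named because they lay far from the other 20 along principal component 1 over all genes, which held 9.15% of the variance. They were replicates 4 and 6 of the 0.5% group and replicates 4 and 5 of the 1.0% group. Array medians of the deposited intensities ran from 4.78 to 7.58. Hepatocyte markers were bright in every group, with the summed level of 9 of 10 markers between 50598 and 55586 on the linear scale. Quantile normalization gives every array the same set of values, and Alb and Ttr were each brighter than 99.97% of genes. The narrow range is thus partly set by the scaling and does not measure hepatocyte content. In bulk liver, fewer cells of a type and less RNA per cell cannot be told apart. The replicates of a group are separate mice per the labels' protocols.

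Arid5b stood highest in livers of mice fed 0.5% quercetin. Its brightest probe set, 1434283_at, brighter than 87.2% of the probe sets used, had a lowest, median and highest log2 level of 6.10, 6.27 and 6.68 in control livers. At 0.1% quercetin the lowest, median and highest were 5.66, 6.07 and 6.61, at 0.5% they were 7.04, 7.76 and 8.07, and at 1.0% they were 6.12, 6.28 and 7.12. Every 0.5% array lay above every control and every 0.1% array, and 1 array at 1.0%, replicate 1, lay above the lowest 0.5% array, replicate 2. Group means were 6.33 ± 0.22 in control, 6.07 ± 0.32 at 0.1%, 7.64 ± 0.39 at 0.5% and 6.46 ± 0.40 at 1.0% (log2, SD, n = 6 each). The 0.5% mean exceeded control by 1.31 (SE 0.20), a fold of 2.49. It exceeded 0.1% by 1.58 (SE 0.20), a fold of 2.98, while 1.0% differed from 0.5% by -1.19 (SE 0.20). Of all genes, 0.192% had every 0.5% array above every control array, and no reading is taken from that share because this contrast chose the gene.

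Slc25a30 had the same peak with a wider spread. Its brightest probe set, 1420836_at, brighter than 96.4% of probe sets, had a lowest, median and highest log2 level of 8.17, 8.70 and 9.63 in control livers and 7.61, 8.17 and 8.35 at 0.1%. The values were 8.56, 9.82 and 10.15 at 0.5%, and 7.22, 8.66 and 9.13 at 1.0%. Unlike those of Arid5b, its control and 0.5% arrays overlapped. The lowest 0.5% array, replicate 6, one of the arrays apart, lay below 4 control arrays, and replicate 2 at 9.43 lay below the highest control array, so 4 of 6 arrays at 0.5% were above all controls. All 6 arrays at 0.5% lay above all 6 at 0.1%, a separation seen in 0.561% of genes. No reading is taken from that share, because the choice of the gene used this contrast. Means were 8.82 ± 0.52 in control, 8.03 ± 0.35 at 0.1%, 9.64 ± 0.59 at 0.5% and 8.48 ± 0.70 at 1.0% (log2, SD, n = 6 each). The 0.5% mean was 0.82 (SE 0.31) above control, a fold of 1.77, and 1.61 (SE 0.31) above 0.1%, a fold of 3.05. The 1.0% mean differed from the 0.5% mean by -1.17 (SE 0.31).

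**Figure D1:**
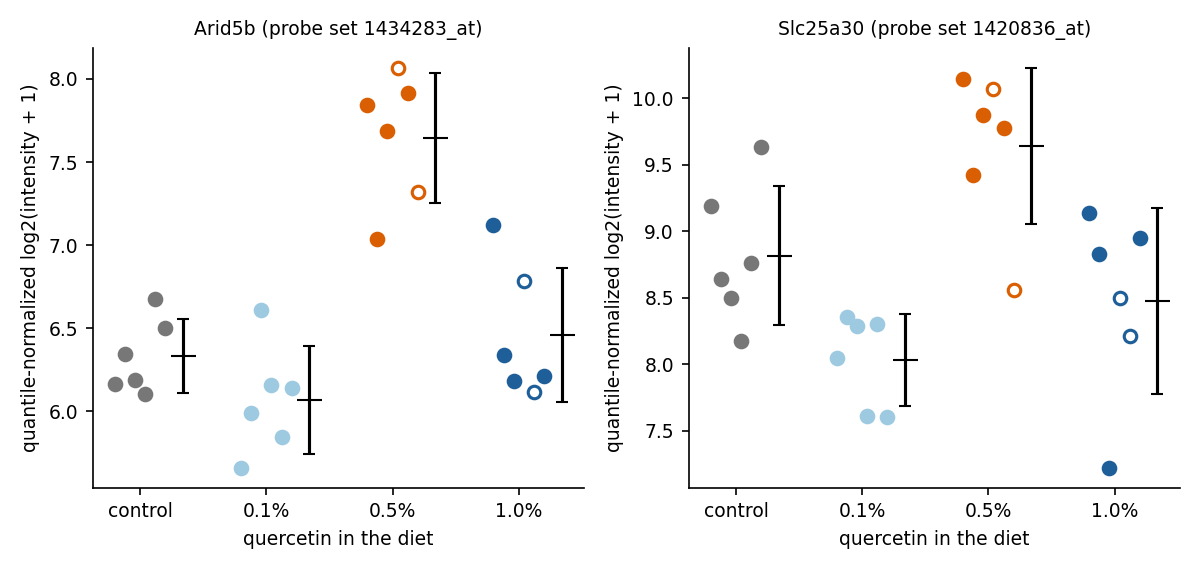
Quantile-normalized log2(intensity + 1) of the brightest probe set of Arid5b (left) and Slc25a30 (right) in each of 24 livers by diet, with the group mean and SD as a bar beside the points (n = 6 each). Open circles are the 4 arrays lying far out on principal component 1, and the 0.5% group holds the highest mean for both genes, with the Slc25a30 value of 0.5% replicate 6 among the control arrays.

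A highest mean at 0.5% was common, since 4185 of 18193 genes, or 23.0%, had one. The gap to the next group was wider than in most of them. For Arid5b the next group was 1.0%, at a gap of 1.19, the 10th widest of all genes. For Slc25a30 the next group was control, at a gap of 0.82, the 50th widest. These ranks come from the values that chose the genes and support nothing further.

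Leaving out the arrays apart or splitting by replicate number moved the sizes, and both highest means stayed at 0.5%. The genes were chosen for that peak, so finding it in parts of the same arrays is no support for it. Without the 4 arrays, 0.5% exceeded control by 1.29 for Arid5b and by 0.99 for Slc25a30. Among replicates 1 to 3 the same difference was 1.29 for Arid5b and 1.04 for Slc25a30, and among replicates 4 to 6 it was 1.34 and 0.61. Against 1.0%, the next group of Arid5b, its 0.5% excess was 0.97 among replicates 1 to 3 and 1.40 among replicates 4 to 6. The numbers are only names in the labels, and the lower Slc25a30 value in the second set includes 0.5% replicate 6. With no normalization between arrays the 0.5% minus control difference was 1.53 (SE 0.25) for Arid5b and 1.04 (SE 0.34) for Slc25a30, beside a shift of 0.15 in the median of all genes.

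The choice of the genes required control, 0.1% and 1.0% each to lie below 0.5%, but set no order among these 3, which are compared here. The genes were picked with all 4 means known, so the p-values are not independent of the choice. None of the comparisons among control, 0.1% and 1.0% passed for either gene (limma, Benjamini-Hochberg adjusted over 18193 genes, threshold 0.05). Over all genes 0% passed for 0.1% against control, where 930 genes (5.11%) had an unadjusted p under 0.05. For 1.0% against control 0.0220% passed, and for 1.0% against 0.1% the share was 0.253%. For 0.5% against 0.1%, a contrast the choice of the genes used, it was 0.214%.

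At 1.0% quercetin Arid5b lay close to its control level. The difference was 0.13 (SE 0.20, 95% interval -0.28 to 0.54, limma adjusted p = 0.901), with 3 of 6 arrays above the control mean. At 0.1% the difference from control was -0.26 (SE 0.20, limma adjusted p = 0.997), with 5 of 6 arrays below the control mean. Between the outer doses, 1.0% stood 0.39 above 0.1% (SE 0.20, 95% interval -0.017 to 0.80, limma adjusted p = 0.558), with 6 of 6 arrays above the 0.1% mean. From low to high the diets ran 0.1%, control, 1.0% and 0.5%, and the tests separated none of the lower 3.

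Slc25a30 had its lowest mean at 0.1%, where 6 of 6 arrays lay below the control mean. That difference was -0.78 (SE 0.31, 95% interval -1.43 to -0.14) and did not pass over all genes (limma adjusted p = 0.942, unadjusted p = 0.0194). At 1.0% the difference from control was -0.34 (SE 0.31, 95% interval -0.98 to 0.30, limma adjusted p = 0.809), with 3 of 6 arrays below the control mean. The 1.0% group stood 0.44 above 0.1% (SE 0.31, limma adjusted p = 0.707), with 5 of 6 arrays above the 0.1% mean. Its order from low to high was 0.1%, 1.0%, control and 0.5%, with 1.0% and control in the opposite order to Arid5b. A p that misses the threshold does not show equal levels, and the interval for 0.1% against control reaches -1.43.

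The brighter probe sets of Slc25a30 gave similar differences from control at 0.5% and at 0.1%. Of its 5 probe sets, 4 were bright, and in these the 0.5% minus control difference ran from 0.67 to 0.82. Their 0.1% minus control difference ran from -0.95 to -0.78. At 1.0% the range was wider, from -0.65 for 1425948_a_at to -0.34 for the brightest set. After group means were removed, 1420835_at, 1450018_s_at and 1425948_a_at followed the brightest set over the 24 arrays with Pearson r of 0.97, 0.97 and 0.91, as a description, since all read the same RNA. Probe set 1425949_at, brighter than only 21.0% of probe sets, had means of 1.17 ± 0.59 in control, 1.80 ± 0.98 at 0.1%, 1.59 ± 0.80 at 0.5% and 1.77 ± 0.63 at 1.0% (log2, SD, n = 6 each), with no peak. The 1450018_s_at name marks probes shared by several transcripts.

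Arid5b probe sets varied more. The second in brightness, 1442176_at, stood furthest above control at 0.5%, by 1.67 (SE 0.35), with means of 5.48 ± 1.06 at 0.5% and 3.81 ± 0.40 in control (log2, SD, n = 6 each). Its lowest, median and highest log2 level at 0.5% were 4.11, 5.23 and 7.07, and 5 of 6 arrays exceeded the highest control array. For 1420973_at the difference was 1.23 (SE 0.51) and for 1420972_at it was 0.52 (SE 0.32), and both had their highest mean at 0.5%. Probe set 1420973_at also stood lowest at 0.1%, with a difference from control of -1.09 (SE 0.51) and a range from 0.31 to 3.65 over the 6 arrays. The dimmest, 1458238_at, brighter than 12.6% of probe sets, stood at -0.19 (SE 0.43) against control at 0.5% and had its highest mean at 0.1%. The 1.0% minus 0.1% difference, 0.39 in the brightest set, was 0.91 (SE 0.35) for 1442176_at and 1.37 (SE 0.51) for 1420973_at. It was 0.061 (SE 0.32) for 1420972_at and -0.72 (SE 0.43) for 1458238_at. Deviations of the other sets from their group means followed those of the brightest with r of 0.43, 0.33, 0.33 and -0.10 in order of brightness. Of the 10 probe sets of both genes, the 8 brighter ones had their highest mean at 0.5% and the 2 dimmest did not. The mean over all 5 sets of Arid5b had a gap of 0.75 to the next group, against 1.19 for the brightest.

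**Figure D2:**
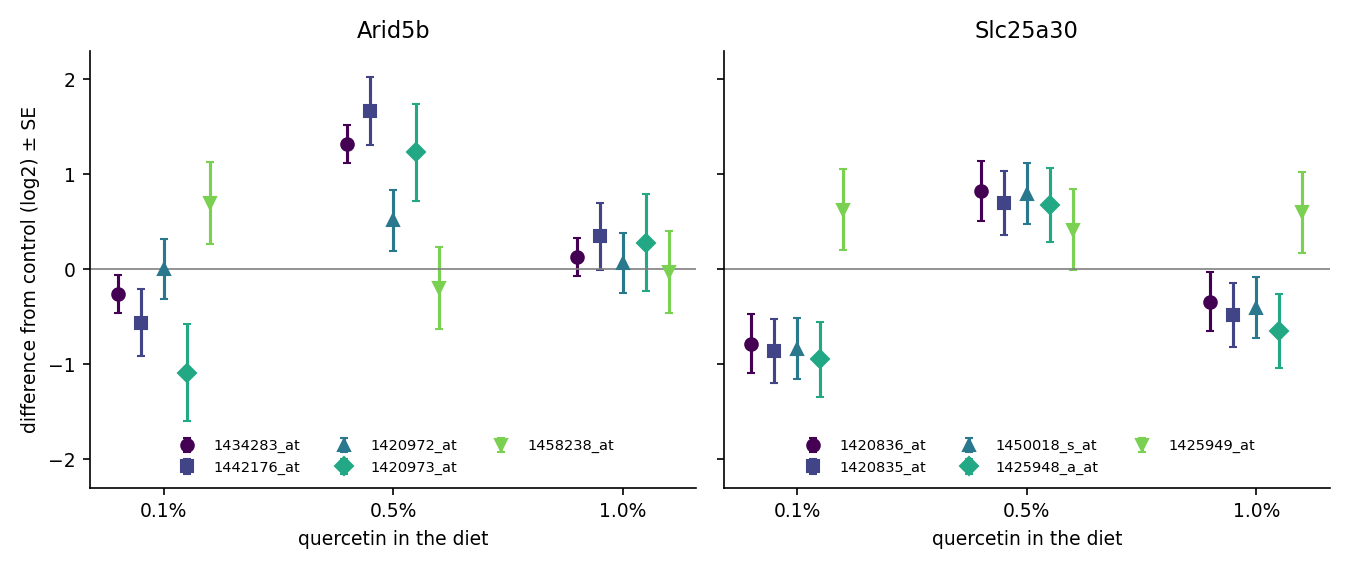
Difference of each quercetin group from control (log2, with SE) for the 5 probe sets of Arid5b (left) and the 5 of Slc25a30 (right), listed from brightest to dimmest. At 0.5% the 4 brighter sets of each gene lie above 0, between 0.52 and 1.67 for Arid5b and between 0.67 and 0.82 for Slc25a30, and the dimmest sets, 1458238_at and 1425949_at, follow neither pattern.

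Within diets, Arid5b and Slc25a30 levels were positively related over the 24 livers, at a p close to the threshold. This relation was not used to choose the genes, since each array was set against the mean of its own group. Over the 24 arrays Pearson r was 0.46 (permutation p = 0.0453, two-sided, shuffled within groups) and Spearman rho 0.45 (permutation p = 0.0420), and it was the 1 relation tested. Within diets of 6 arrays r was 0.42 in control, -0.036 at 0.1%, 0.70 at 0.5% and 0.51 at 1.0%. Without the 2 arrays farthest from the median of Arid5b, 1.0% replicate 1 and 0.5% replicate 2, r was 0.39 (permutation p = 0.0970, n = 22), and the relation no longer passed. Without the 4 arrays apart r was 0.39 (permutation p = 0.162, n = 20), and with 1 array left out it passed in 11 of 24 cases. The highest p of these was 0.0929 without 1.0% replicate 1, while it kept its call without 0.5% replicate 2 (permutation p = 0.0450) and lost it without arrays of each diet, such as control replicate 4 (permutation p = 0.0704) or 0.5% replicate 4 (permutation p = 0.0706). With group means kept, r was 0.77, a value that the shared peak at 0.5% raises by construction.

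**Figure D3:**
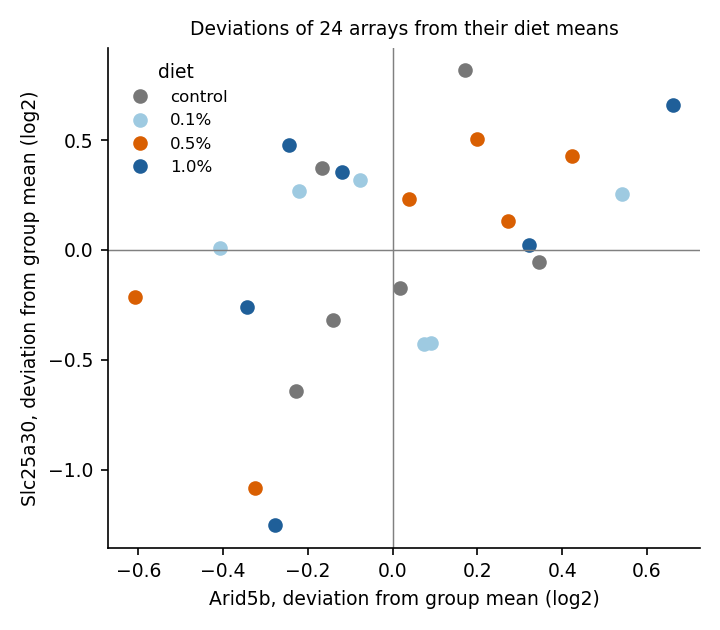
Deviation of each of 24 livers from its diet mean for Arid5b (x axis, log2) against Slc25a30 (y axis, log2), coloured by diet. Points slope upward with r = 0.46, and the lowest Slc25a30 deviations, from 1.0% replicate 3 and 0.5% replicate 6, also lie left of 0 for Arid5b.

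Of the genes brighter than the median gene, the 5 whose levels over the 24 arrays were most like Arid5b were Alas1 (r = 0.83), Cish (0.82), Resf1 (0.79), Slc25a30 (0.77) and Wdr45b (0.75). Alas1 encodes the first enzyme of heme synthesis, and its means were 7.84 ± 0.80 in control, 7.31 ± 0.35 at 0.1%, 10.10 ± 0.79 at 0.5% and 8.05 ± 0.74 at 1.0% (log2, SD, n = 6 each). Cish, a feedback inhibitor of cytokine receptor signalling, had means of 4.72 ± 0.74, 5.08 ± 0.84, 7.12 ± 0.29 and 5.58 ± 1.16 in the same order. After group means were removed, r with Arid5b was 0.28 for Alas1 and 0.58 for Cish, so the likeness of Alas1 lay mostly in the group means. Running opposite were Ssna1 (r = -0.75), Rmnd5b (-0.74) and Tbx3 (-0.74). Tbx3, a developmental transcription factor gene, had means of 5.22 in control, 5.30 at 0.1%, 3.92 at 0.5% and 4.75 at 1.0%.

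For Slc25a30 the most alike were Rgs3 (r = 0.77), Arid5b (0.77), E2f8 (0.75), D230025D16Rik (0.73) and Onecut1 (0.71). Rgs3, a regulator of G protein signalling, kept an r of 0.62 after group means were removed. Onecut1, which encodes hepatocyte nuclear factor 6, had means of 4.49 ± 0.81 in control, 3.78 ± 0.54 at 0.1%, 6.44 ± 0.78 at 0.5% and 5.10 ± 1.31 at 1.0% (log2, SD, n = 6 each). Lowest in r were Rmnd5b (-0.73), Cnksr3 (-0.68) and Gatc (-0.66), and Rmnd5b stood in the lists of both genes. Measured on deviations from group means, the names changed, with Exoc7 (0.77) highest for Arid5b and Usp4 (0.78) for Slc25a30, neither of them among the 5 above. These r describe likeness over 24 arrays that share their diets and were picked as extremes among 9095 genes. Where group means were kept, the picking favours genes that also peak at 0.5%, because Arid5b and Slc25a30 were chosen for that peak.

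**Figure D4:**
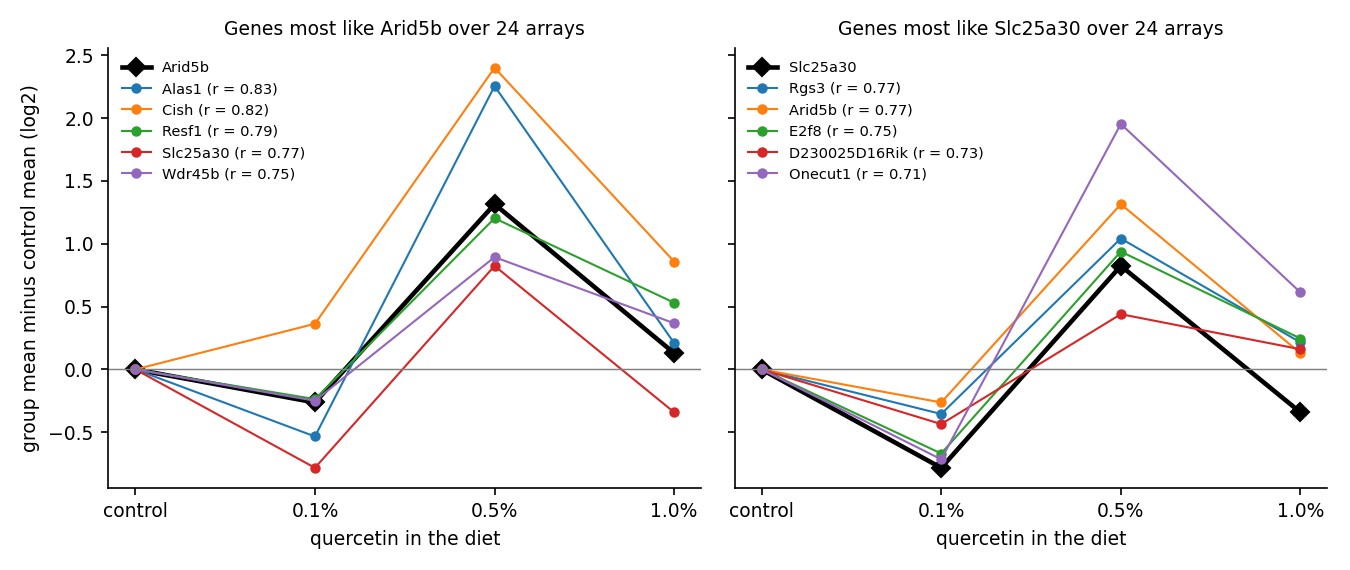
Group mean minus control mean (log2) by diet for Arid5b (left, black) and Slc25a30 (right, black) with the 5 genes most like each over 24 arrays, r in the legend. Each of the genes drawn has its highest mean at 0.5%, and Slc25a30 is the 1 drawn gene below control at 1.0%. The 5 genes were picked for likeness to a gene chosen to peak at 0.5%, with group means kept. Their shared peak is thus favoured by the picking, and no reading is taken from it.

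**Figure D5:**
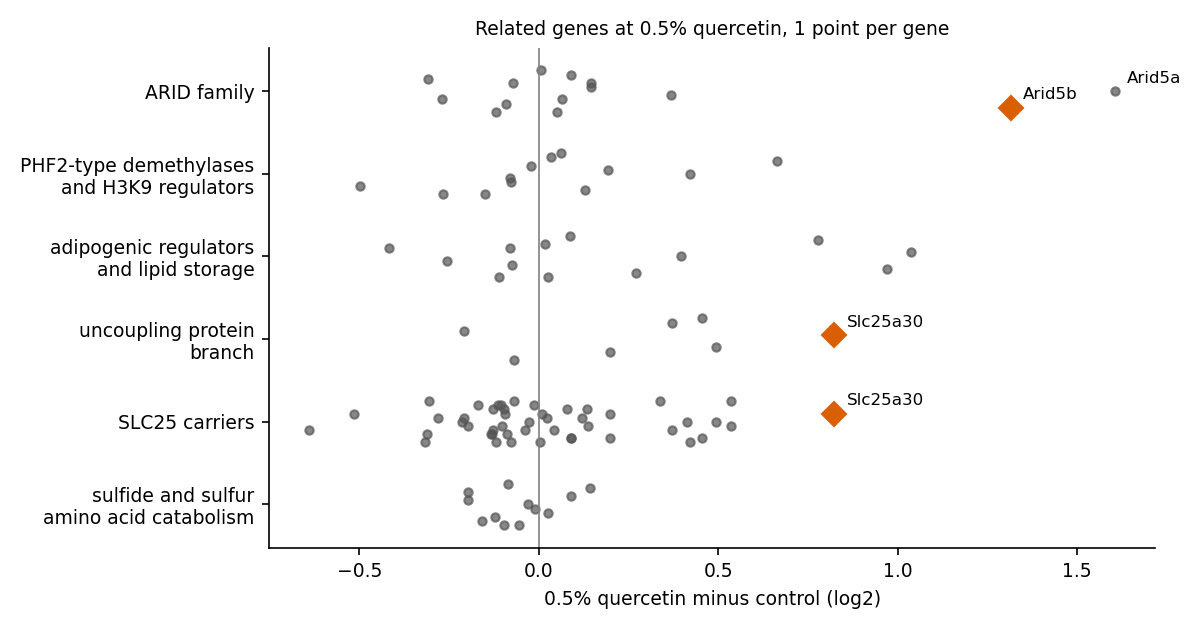
Difference between 0.5% quercetin and control (log2) for each measured gene of 6 lists related to Arid5b or Slc25a30, 1 point per gene, with both genes as diamonds. Arid5a lies beyond Arid5b at 1.60, and no SLC25 carrier lies beyond Slc25a30 at 0.82. Both diamonds were chosen for their level at 0.5%, so no reading is taken from their place among relatives.

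No relative of Arid5b passed at 0.5%. Of the 13 other ARID family genes measured, 0 passed at 0.5% against control in limma, where 0.0165% of all genes did, and 1 had an unadjusted p under 0.05, as did 7.65% of all genes. Their median difference was 0.05 against -0.021 over all genes. Arid5a, the closest relative, which encodes an RNA-binding regulator of inflammatory transcripts, stood 1.60 above control at 0.5% (SE 0.50, limma adjusted p = 0.507). Its means were 2.48 ± 1.02 in control, 3.59 ± 0.52 at 0.1%, 4.09 ± 0.80 at 0.5% and 3.79 ± 1.15 at 1.0% (log2, SD, n = 6 each), above control at each dose and dimmer than the median gene. The next by p-value were Arid2 (-0.27), Jarid2 (-0.31) and Kdm5a (0.37).

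No partner or pathway gene of Arid5b passed at 0.5% against control in limma, where 0.0165% of all genes passed and 7.65% had an unadjusted p under 0.05. Phf2, the demethylase partner, differed from control by 0.13 at 0.5% (SE 0.15, limma adjusted p = 0.876). Of 12 measured histone H3 demethylases and methyltransferases 0 passed at 0.5% and 0 had an unadjusted p under 0.05, with a median difference of 0.0061 and the smallest p for Phf8 (0.66), Kdm7a (0.42), Kdm4b (-0.50) and Ehmt1 (-0.15). Among 13 adipogenic and lipid storage genes 0 passed at 0.5% in limma and 2 had an unadjusted p under 0.05, with a median of 0.026. Those were Cebpb, a transcription factor of fat cell formation and the acute phase (1.04, SE 0.31, adjusted p = 0.501), and its relative Cebpd (0.97, SE 0.37, adjusted p = 0.563). Cidea (0.78) and Fabp4 (0.27) followed. Cebpb had means of 8.87 ± 0.85 at 0.5% and 8.64 ± 0.60 at 1.0%, both over 7.84 ± 0.28 in control (log2, SD, n = 6 each). In the gluconeogenic list, which holds targets reported for the PHF2 and ARID5B complex in human liver cells, 0 of 10 passed at 0.5% and 2 had an unadjusted p under 0.05, with a median of 0.0027. Its smallest p belonged to Foxo1 (0.27), Hnf4a (0.37), Ppargc1a (0.45) and Creb1 (-0.13). G6pc, the last enzyme of glucose release, stood 1.40 lower at 1.0% than at 0.1% (SE 0.27, limma adjusted p = 0.0302), where 0.253% of all genes passed. Its means were 8.97 ± 0.65 at 1.0% and 10.38 ± 0.21 at 0.1% (log2, SD, n = 6 each). Against control it differed by 0.55 at 0.1% and by -0.86 at 1.0%. Neither of these differences passed, where 0% and 0.0220% of all genes did.

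No relative of Slc25a30 passed at 0.5% against control either, where 0.0165% of all genes passed and 7.65% had an unadjusted p under 0.05. At the first share lists this short would seldom hold a call, so no reading is taken from its absence. In the uncoupling protein branch, 0 of the 6 other genes measured passed at 0.5% against control in limma and 0 had an unadjusted p under 0.05, with a median difference of 0.29. Slc25a14, the nearest relative, stood at 0.49 (SE 0.52), Slc25a27 at 0.45 (SE 0.47), Ucp3 at 0.37 (SE 0.31) and Slc25a11, the oxoglutarate carrier, at -0.21 (SE 0.15). Slc25a10, the dicarboxylate carrier, differed by -0.070 (SE 0.12). Across the SLC25 carriers 0 of 46 passed and 0 had an unadjusted p under 0.05 at 0.5% against control, with a median of -0.054 and a range from -0.64 to 0.54. The smallest p among them belonged to Slc25a44 (-0.28), Slc25a15 (0.20), Slc25a22 (0.34) and Slc25a4 (-0.32).

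Sulfur handling, the chemistry nearest to what the human carrier moves, had 0 of 12 genes passing at 0.5% against control. Of these 12 genes 0 had an unadjusted p under 0.05, and the median difference was -0.071. The shares of all genes were 0.0165% passing and 7.65% with an unadjusted p under 0.05, so no reading is taken from these counts. Sqor, which oxidizes sulfide in mitochondria, stood at -0.20 (SE 0.10), Ethe1, the next enzyme of that route, at -0.20 (SE 0.10), Got2 at -0.12 and Cbs at -0.096. Csad, an enzyme of taurine synthesis on that list, rose at 1.0% over every other diet, by 1.02 against control (limma adjusted p = 0.00607), 1.06 against 0.1% (limma adjusted p = 0.00302) and 1.00 against 0.5% (limma adjusted p = 0.0268). The shares of all genes passing were 0.0220% against control, 0.253% against 0.1% and 0.0220% against 0.5%. Its means were 6.26 ± 0.12 in control, 6.22 ± 0.09 at 0.1%, 6.29 ± 0.30 at 0.5% and 7.29 ± 0.39 at 1.0% (log2, SD, n = 6 each).

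Markers of other cells were set beside both genes, because each can be expressed outside hepatocytes. Of these lists 0 members passed in limma at 0.5% against control, and members with an unadjusted p under 0.05 numbered 1 of 10 for Kupffer cells, 1 of 8 for endothelium, 1 of 9 for stellate cells, 1 of 9 for lymphocytes, 3 of 8 for neutrophils, 0 of 4 for adipocytes and 1 of 8 for kidney tubules. Over all genes 0.0165% passed in this comparison and 7.65% had an unadjusted p under 0.05. Kupffer markers with the smallest p were Cd5l (-0.25), Adgre1 (0.27), Vsig4 (-0.20) and Csf1r (-0.16). Endothelial ones were Lyve1 (0.85), Kdr (-0.36), Pecam1 (0.30) and Clec4g (-0.12), and stellate ones Dcn (-0.26), Des (-0.89), Acta2 (0.11) and Reln (-0.072). For lymphocytes they were Cd79b (0.60), Cd3g (0.90), Cd8a (0.24) and Cd3e (-0.19), for adipocytes Adipoq (-0.56), Retn (-0.48), Fabp4 (0.27) and Lep (0.16), and for kidney tubules Slc12a1 (-1.14), Kap (-0.27), Slc12a3 (0.55) and Slc34a1 (-0.46). Summed linear levels at 0.5% against control ran from 1061 to 1203 against 1154 to 1286 for Kupffer cells, and from 526.8 to 674.4 against 610.9 to 688.2 for endothelium. For stellate cells they were 737.4 to 1015 against 809.8 to 1291, for lymphocytes 63.5 to 82.0 against 55.1 to 89.2, for adipocytes 80.02 to 160.6 against 72.4 to 117.5, and for kidney tubules 16.4 to 36.6 against 26.7 to 39.2. At 1.0% the adipocyte sum reached 433.4 in replicate 5, one of the arrays apart, and was 144.2 or less in the other 5 arrays. This sum held 4 of 7 markers, of which 3 were dimmer than the median gene, so it mostly reflected Fabp4. At 1.0% against control Fabp4 differed by 0.61 and Lep by 0.036, but Adipoq by -0.52 and Retn by -0.56, and none passed in limma. Without the arrays apart the 1.0% minus control difference was 0.13 for Arid5b and -0.28 for Slc25a30, and the part of adipocytes in it was not tested. All 8 kidney tubule markers were dimmer than the median gene, and no marker had an intensity of exactly 0. Among hepatocyte markers 0 of 9 passed and 1 had an unadjusted p under 0.05, with Hnf4a (0.37), Tdo2 (0.079), Alb (-0.053) and Ttr (-0.050) smallest in p.

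Neutrophil markers were high in 2 arrays of the 0.5% group. Their summed linear level, over 8 of 10 markers of which 5 were dimmer than the median gene, ran from 64.6 to 339.2 at 0.5%, against 55.4 to 76.8 in control. It was 196.8 in 0.5% replicate 4 and 339.2 in replicate 6, and 89.3 or less in the other 4 arrays of that group. At 0.1% the range was 73.8 to 91.6 and at 1.0% it was 66.9 to 143.2, where replicates 4 and 5, the other arrays apart, were highest. The part of these cells in the results of either gene was not tested. All 8 markers stood above control at 0.1% and at 1.0%, with median differences of 0.34 and 0.57, where 52.3% and 48.4% of all genes stood above. None of them passed there, where 0% and 0.0220% of all genes did. At 0.5% 5 of the 8 stood above control and 3 below, with a median difference of 0.31 and none passing. S100a8 stood at 1.52, S100a9 at 1.16, Mpo at 0.82 and Camp at 0.46, against -0.31 for Elane, -0.13 for Ngp and -0.19 for Csf3r. In the array with the highest sum, 0.5% replicate 6, Arid5b was 7.32 and Slc25a30 8.56, the second lowest and the lowest of their group. The other high array, 0.5% replicate 4, went the opposite way, with Arid5b at 8.07, the highest of its group, and Slc25a30 at 10.07, the second highest. Without the arrays apart the 0.5% excess over control was 1.29 for Arid5b and 0.99 for Slc25a30.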

How the data were processed

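For each array the deposited table gives an intensity per probe set, 45101 in all, on a linear scale set by the authors. How background was corrected and probes were summarized is not stated in the sources used here, and the labels' protocols describe biotin-labelled cRNA on Affymetrix arrays. Quantile normalization of log2(intensity + 1) over all probe sets was applied here. By the platform's annotation 34945 probe sets carried 1 symbol and were used, and 932 carried several and were left out. Each of 18193 genes was represented by its brightest probe set by mean over the 24 arrays. Symbols were matched to the RefSeq table through gene IDs for 34741 probe sets, and promoter sequences came from RefSeq (GRCm38.p6).

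A single fit of all 24 arrays was made with limma's eBayes (version 3.58.1, R 4.3.3), two-sided, Benjamini-Hochberg adjusted at 0.05, with 1 mean per diet. SEs per probe set came from the same fit over all probe sets used. The correlation of deviations used 100000 permutations within groups. The scripts were tested on simulated data with known changes. Members, lists and tests were chosen with earlier results of these data known. Named list genes are up to 4 per list with the smallest p at 0.5% against control, plus called ones, and genes most alike are the 5 highest and 3 lowest r. Phf2, Slc25a10 and the values of Cebpb and Csad by group were added for their role after values were seen. Alternatives covered normalization, a pseudocount of 16, probe set choice, filters, eBayes options, array weights, blocks, fits of 2 groups and each array left out. Leaving out the 4 arrays apart was added after seeing the data.

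Same-numbered arrays of different groups did not deviate together (r from -0.064 to 0.11 over 36 pairs, median 0.0039), so the replicate number was not taken as pairing.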

Additional observations from a re-analysis of the deposited data

Results flagged for a closer look

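Among 40 combinations of probe set and diet, 1 array lay far from the others of its group, where chance alone gives about 1 in 20. It was 0.1% replicate 6 for the dimmest Arid5b probe set, 1458238_at, at 0.19 on the log2 scale, against 1.83 in the nearest of the other 5 arrays. This probe set is brighter than only 12.6% of the probe sets used.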

How the results depend on the processing

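Both genes kept their highest mean at 0.5% under each of the 6 alternatives run on levels and with each array left out. The genes were chosen for this peak in the same values, so its staying follows largely from the choice and supports nothing further. The gap to the next group moved for Arid5b with the mean of all probe sets, to 0.75 from 1.19, and ran from 1.10 to 1.32 for Arid5b and from 0.69 to 1.04 for Slc25a30 with 1 array left out. The 6 tested differences among control, 0.1% and 1.0% passed under no setting. With 1 array left out they ran from -0.37 to -0.18, from -0.0029 to 0.20 and from 0.26 to 0.50 for Arid5b at 0.1% against control, 1.0% against control and 1.0% against 0.1%, the second turning negative (-0.0029) without 1.0% replicate 1. For Slc25a30 the same ranges were -0.91 to -0.62, -0.47 to -0.091 and 0.31 to 0.69. The correlation of deviations lost its call with the most variable probe sets (r = 0.21, permutation p = 0.405) and without the 4 arrays apart (r = 0.39, permutation p = 0.161), and ran from 0.39 to 0.52 with 1 array left out. With no normalization it was 0.58 (permutation p = 0.00978).

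Counts of genes passing in limma depended on the setting. At 0.5% against control 3 passed, with 5 without normalization, 7 centred on medians, 6 with array weights, 0 in the fit of 2 groups, 0 with the replicate block, 1 without the 4 arrays apart and 0 to 6 with 1 array left out (0 without control replicate 1 or 4 or 0.5% replicate 4 or 5). At 1.0% against control 4 passed, with 0 without normalization, 2 centred on medians, 7 with the mean of probe sets, 1 in the fit of 2 groups, 0 without the 4 arrays and 4 to 7 with 1 array left out. At 1.0% against 0.1% 46 passed, with 6 without normalization, 20 centred on medians, 111 with a pseudocount of 16, 14 with the most variable probe sets, 115 above the median level, 91 with the trend and robust options, 10 in the fit of 2 groups, 91 with sets of replicates as a block and 18 to 62 with 1 array left out. At 0.1% against control 0 passed, and 0 to 1 with 1 array left out. The cause of these differences was not tested. With the replicate block r of the deviations was 0.56 (permutation p = 0.00723). That shuffle was within groups and did not keep the block, so this p can be too small and no reading is taken from it. The tested differences changed no call with the replicate block. The calls of G6pc and Csad were not recomputed under the alternatives.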
